A study of Mus musculus with 2 samples.

Results

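The TREM receptors and Tyrobp were followed through the white cells of mouse blood. The set was fixed by name and holds 6 of the 32285 features in the deposited tables, namely Trem1, Trem2, Trem3, Treml2, Treml4 and the adaptor gene Tyrobp, and all 6 were found by symbol and by gene identifier. Single-cell 3′ RNA sequencing was available for 2 libraries. The WT library is taken from the study's methods to be of C57BL/6J mice, and the APP/PS1 library came from mice of the APP/PS1 transgenic model, which carry mutant human amyloid precursor protein and presenilin transgenes. The study describes female mice at 7 months of age and cells pooled from 3 mice, without saying whether that is 3 for each library. Blood cells were used after lysis of red cells and enrichment of neutrophils with a commercial kit, and the labels name no treatment. What differs between the libraries therefore includes genotype, pool and library preparation, which cannot be told apart.

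TREM proteins are receptors of myeloid cells with a single immunoglobulin-like domain and almost no signalling part of their own. TREM1, TREM2 and TREM3 pair in the membrane with DAP12, the product of Tyrobp, which carries the tyrosine motif that recruits the kinase Syk. TREM1 is known as an amplifier of inflammatory signals in neutrophils and monocytes, TREM2 as a lipid and apolipoprotein receptor of macrophages and microglia that is linked to Alzheimer's disease, and TREML4 as a receptor of patrolling blood monocytes. TREM3 is a receptor in mice and a pseudogene in humans, and TREML2 lacks the charged residue used for pairing with DAP12.

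In the mm10 assembly with GENCODE M21 annotation, the 5 receptor genes lie on the plus strand of chromosome 17. They are Trem1 (ENSMUSG00000042265, chr17:48232768-48246924), Trem3 (ENSMUSG00000041754, chr17:48247777-48258841), Treml4 (ENSMUSG00000051682, chr17:48264295-48275360), Treml2 (ENSMUSG00000071068, chr17:48299498-48312533) and Trem2 (ENSMUSG00000023992, chr17:48346401-48354147). Trem1 ends 852 bases before Trem3 starts, and 5453 bases separate Trem3 from Treml4. Tyrobp (ENSMUSG00000030579, chr7:30413760-30417585, plus strand) lies on chromosome 7, with 126 bases between its end and the end of Hcst, the gene of the related adaptor DAP10 on the opposite strand.

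The 3 start regions below are those that were at hand for the 6 genes. Their genes had different leading cells, namely neutrophils for Trem1, nonclassical monocytes for Treml4 and classical monocytes for Trem2. RefSeq gave the 250 bases before the start on GRCm38.p6 for these 3 of the 6 genes. Those of Trem3, Treml2 and Tyrobp were not at hand. Capitals mark GAGGAA on either strand, the core of the site of PU.1, a transcription factor of myeloid cells.
Trem1, chr17:48232489-48232738, plus strand: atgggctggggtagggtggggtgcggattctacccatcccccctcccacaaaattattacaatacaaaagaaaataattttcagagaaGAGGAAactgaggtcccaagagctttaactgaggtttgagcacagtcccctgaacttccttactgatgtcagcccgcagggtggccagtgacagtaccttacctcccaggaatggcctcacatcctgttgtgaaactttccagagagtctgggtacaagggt
Treml4, chr17:48264045-48264294, plus strand: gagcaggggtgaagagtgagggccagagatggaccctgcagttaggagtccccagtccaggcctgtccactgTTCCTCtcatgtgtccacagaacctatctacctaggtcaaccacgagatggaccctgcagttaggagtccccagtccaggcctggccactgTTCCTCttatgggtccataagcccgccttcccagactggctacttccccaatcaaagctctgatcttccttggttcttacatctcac
Trem2, chr17:48346151-48346400, plus strand: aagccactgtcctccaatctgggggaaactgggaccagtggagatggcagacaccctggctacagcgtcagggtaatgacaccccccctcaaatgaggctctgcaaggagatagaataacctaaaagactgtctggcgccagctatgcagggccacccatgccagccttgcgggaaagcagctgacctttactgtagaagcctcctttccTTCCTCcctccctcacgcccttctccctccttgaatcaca
Each window held at least 1 match. Treml4 held 2, each a short way after a copy of the same 40 bases, which stand at positions 26 to 65 and 117 to 156 of its window. GAGGAA was also found in 7639 of 32851 windows of this length (23.3%), and no link between these letters and the levels was tested.

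The WT library held 17123 cells and 92458623 UMIs, and the APP/PS1 library 17645 cells and 84870864 UMIs. After the filters, 14564 and 15208 cells were kept, of which 63 barcodes stood in both libraries. Although the labels call the cells neutrophils, 7580 WT cells (52.0%) and 9587 APP/PS1 cells (63.0%) carried neutrophil markers, and monocytes made up most of the rest. Cells are called by the type whose markers they carried and are like that type in these markers only. A level is the UMIs of a gene per 1000000 UMIs of the cells in question (CPM), and since each molecule is counted once near its 3′ end, they were not divided by gene length. With 1 library per genotype there is no replicate error, no test was possible and no p-value is given. Intervals are exact 95% intervals (Poisson for levels, conditional for ratios, Clopper-Pearson for shares) and cover counting error only.

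Tyrobp was by far the most abundant gene of the set, and each receptor had its own leading cell. In mature neutrophils, Tyrobp stood at 7731 CPM (WT) and 8549 CPM (APP/PS1), and at least 1 UMI was seen in 99.97% and 99.99% of the 7409 and 9360 cells. Basophils followed with 4756 and 4994 CPM, and then immature neutrophils with 3953 and 3770 CPM. NK cells, known to use DAP12 with their activating receptors, held 3606 and 3845 CPM. Classical monocytes held 3466 and 3590 CPM and nonclassical monocytes 3169 and 3123 CPM. Mature neutrophils thus stood above all other cell types in both libraries, and the order of immature neutrophils and NK cells changed between the libraries.

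T and B cells were the low end for Tyrobp, with 1191 and 1009 CPM in T cells and 765 and 603 CPM in B cells, and plasma cells were near them at 771 and 514 CPM. These are cells in which RNA free in the droplets or a captured second cell could be read. In B cells, Tyrobp stood at 9.89% and 7.05% of its mature neutrophil level. S100a8, a calcium-binding protein gene of neutrophils, stood at 7.55% and 4.89% there, and the chemokine receptor gene Cxcr2 at 7.46% and 6.43%. Retnlg, another neutrophil gene, stood at 6.69% and 3.24%. The Tyrobp intervals in B cells, 9.35% to 10.5% and 6.64% to 7.48%, lay above those of S100a8 and Retnlg in both libraries. The Tyrobp interval also lay above that of Cxcr2 in WT and overlapped with it in APP/PS1. How much of the Tyrobp in B cells came from neutrophil RNA was not tested. In NK cells Tyrobp was at 46.6% and 45.0% of the neutrophil level while S100a8 was at 11.1% and 12.7%.

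**Figure D1:**
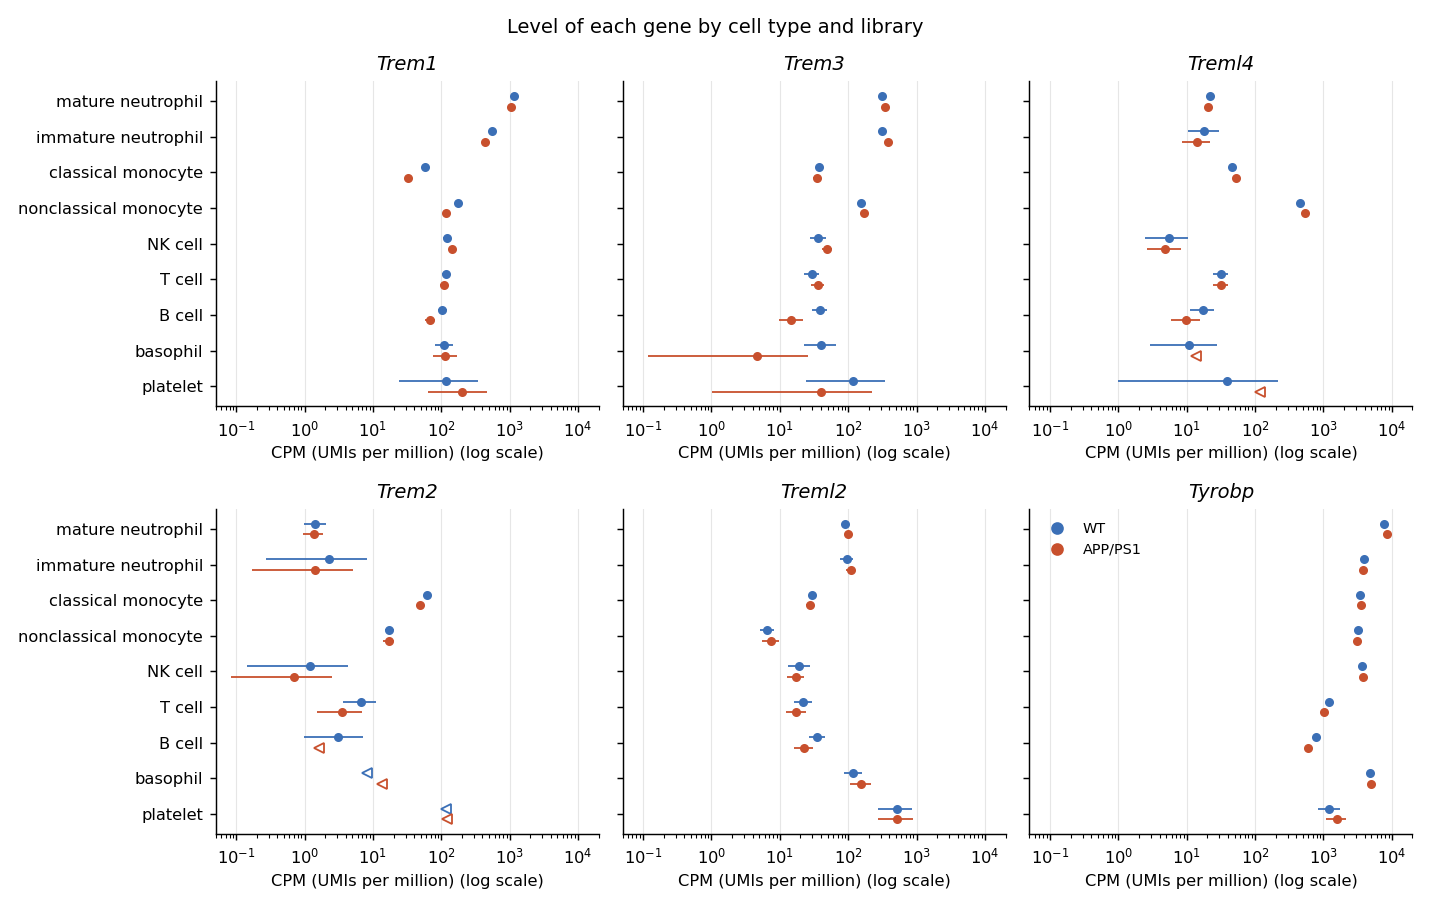
Level of each of the 6 genes (CPM, log scale) in 9 cell types, with WT in blue and APP/PS1 in orange; points are summed counts, bars are exact 95% Poisson intervals and open triangles mark the level that 3 counts would give where no UMI was seen. Trem1 leads in mature neutrophils at 1148 and 1062, Treml4 in nonclassical monocytes at 460 and 536, and Trem2 in classical monocytes at 61.3 and 48.7.

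Trem1 was the leading receptor gene of neutrophils. Mature neutrophils held 1148 CPM (1133 to 1162) in WT and 1062 CPM (1050 to 1074) in APP/PS1, with a UMI in 89.2% and 86.6% of cells. Immature neutrophils held 560 CPM (512 to 612) and 436 CPM (403 to 472). Both neutrophil classes stood above classical and nonclassical monocytes in either library. Nonclassical monocytes held 174 and 116 CPM of Trem1, and classical monocytes 57.0 and 33.1 CPM. The level in classical monocytes was below that in B cells, at 103 and 68.9 CPM, and T cells, at 116 and 109 CPM, both of which held more neutrophil marker RNA. Plasma cells, with 39 and 64 cells, were near B cells at 119 and 67.0 CPM from 12 and 9 UMIs. Erythroid cells, at 214 and 294 CPM, were not placed in the order of any member, since their summed neutrophil markers stood at 34546 and 42216 CPM.

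Trem3 had the highest level in neutrophils of both ages and a lower level in nonclassical monocytes. Mature neutrophils held 309 CPM (301 to 316) in WT and 347 CPM (340 to 354) in APP/PS1, and immature neutrophils 314 CPM (279 to 354) and 376 CPM (345 to 410). The intervals of both ages overlapped in each library. Nonclassical monocytes held 155 and 171 CPM, and classical monocytes 37.2 and 34.5 CPM. In B cells the level was 38.4 and 14.8 CPM, so classical monocytes were not above B cells in WT.

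Treml4 was the gene with the sharpest boundary between monocyte classes. Nonclassical monocytes held 460 CPM (448 to 473) in WT and 536 CPM (519 to 554) in APP/PS1, with a UMI in 79.9% and 84.9% of the 2480 and 1558 cells. Classical monocytes held 45.3 and 52.9 CPM, and mature neutrophils 22.2 and 20.6 CPM. T cells lay between them with 31.8 and 31.4 CPM from 67 and 72 UMIs. B cells, with 17.1 and 9.84 CPM, and NK cells, with 5.42 and 4.85 CPM, were lower. Summed monocyte markers stood at 1783 and 1126 CPM in T cells, 1657 and 1349 CPM in B cells and 552 and 531 CPM in NK cells. In nonclassical monocytes they stood at 9569 and 9459 CPM. How much of the Treml4 in T cells came from monocyte RNA was not tested.

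Trem2 was rare in blood and led in classical monocytes. There it reached 61.3 CPM (57.5 to 65.4) in WT and 48.7 CPM (44.6 to 53.1) in APP/PS1, with a UMI in 32.0% and 25.6% of cells at a median of 7936 and 7603 UMIs per cell. In B cells, at a median of 5001 and 5875 UMIs, the share was 1.65% and 0%, and 0 of 307 B cells, with 1828880 UMIs, allows a level of up to 1.64 CPM. Nonclassical monocytes held 17.4 and 17.2 CPM. Mature neutrophils held 1.44 and 1.36 CPM from 30 and 38 UMIs, which overlapped with the intervals of NK cells and immature neutrophils, both with 2 UMIs in each library. T cells were above mature neutrophils, at 462% (226 to 898) and 257% (104 to 560) of their level, from 14 and 8 UMIs. Summed monocyte markers stood at 1783 and 1126 CPM in T cells and 2097 and 2299 CPM in mature neutrophils. In classical monocytes they stood at 10578 and 10641 CPM. The part of monocyte RNA in the Trem2 of T cells was not tested. No Trem2 UMI was seen in basophils or platelets, where 3 counts correspond to 8.12 and 13.8 CPM in basophils and to 117 and 119 CPM in platelets.

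Treml2 differed from the other receptors in that its highest levels lay outside neutrophils and monocytes. Platelets held 509 and 517 CPM, but this rests on 13 UMIs in 16 cells of each library. Basophils held 119 and 152 CPM from 44 and 33 UMIs, immature neutrophils 95.8 and 109 CPM, and mature neutrophils 90.6 CPM (86.6 to 94.8) and 98.5 CPM (94.8 to 102). Basophils and immature neutrophils could not be placed in order, as their intervals overlapped in each library. B cells, in which TREML2 is known, held 34.7 and 22.4 CPM, or 38.3% and 22.8% of the neutrophil level against 7.55% and 4.89% for S100a8. T cells, at 24.1% and 17.7%, and NK cells, at 21.3% and 17.6%, also had a higher percentage for Treml2 than for S100a8, which was at 7.77% and 9.96% in T cells and 11.1% and 12.7% in NK cells. In APP/PS1 their Treml2 intervals overlapped with that of B cells, 16.3% to 31.0%. Classical monocytes held 29.4 and 27.4 CPM and nonclassical monocytes 6.56 and 7.45 CPM.

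**Figure D2:**
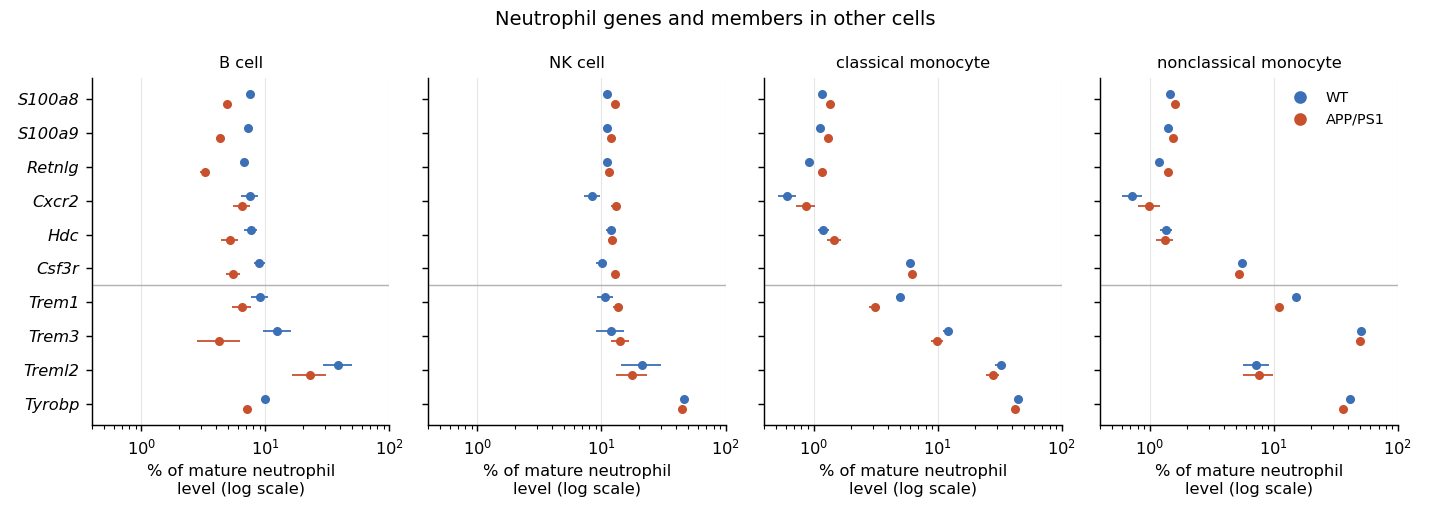
Level in B cells, NK cells and both monocyte classes as a percentage of the level in mature neutrophils of the same library (log scale), for 6 neutrophil genes above the line and 4 members below it, with WT in blue, APP/PS1 in orange and exact 95% intervals. In B cells Trem1 lies near S100a8, whereas in nonclassical monocytes Trem3, at 50.2% and 49.4%, lies far above S100a8, at 1.46% and 1.61%.

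How far the members in other cells followed neutrophil RNA was described with these percentages. In nonclassical monocytes, Trem1 stood at 15.1% and 10.96% of its neutrophil level and Trem3 at 50.2% and 49.4%, against 1.46% and 1.61% for S100a8 and 0.72% and 0.99% for Cxcr2. In classical monocytes, Trem1 stood at 4.97% (4.64 to 5.32) and 3.12% (2.80 to 3.46) and Trem3 at 12.0% and 9.94%, against 1.17% and 1.36% for S100a8 and 0.61% and 0.87% for Cxcr2. Csf3r, the receptor gene of the granulocyte growth factor G-CSF, stood at 5.96% and 6.22% there. Neutrophil genes thus did not share 1 percentage in monocytes, while in B cells Trem1, at 8.98% and 6.49%, lay close to Csf3r, at 8.95% and 5.48%. After each cell was thinned to 1000 UMIs, Trem1 was seen in 5.67% and 3.12% of classical monocytes and in 7.26% and 5.86% of B cells, but B cells are no measure of background for classical monocytes, since their summed neutrophil markers were at 13205 and 6675 CPM against 2157 and 2083 CPM. Within classical monocytes Trem1 lay above S100a8 and Cxcr2 and below Csf3r on the scale of neutrophil levels, and how much of it came from neutrophil RNA was not tested. In nonclassical monocytes the thinned share was 15.4% and 10.3%.

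Maturity was the next comparison, because neutrophils released early from bone marrow still hold RNA for granule proteins. Immature neutrophils were the cluster led by Camp, Ngp and Ltf, genes of specific granules, and held 171 WT and 227 APP/PS1 cells. Trem1 and Tyrobp were lower in immature than in mature neutrophils, whereas Trem3 and Treml2 lay at a similar level. The log2 ratio of immature to mature was -1.03 (-1.17 to -0.91) in WT and -1.28 (-1.40 to -1.17) in APP/PS1 for Trem1, and -0.97 and -1.18 for Tyrobp. For Trem3 it was 0.03 and 0.12, and for Treml2 0.08 and 0.14. These ratios depend on the totals. With mitochondrial, ribosomal protein and haemoglobin genes, S100a8 and S100a9 left out of the totals, Trem1 was at -0.77 and -0.97. Tyrobp was then at -0.70 and -0.87, Trem3 at 0.30 and 0.43, and Treml2 at 0.35 and 0.46. Trem2 and Treml4 had under 50 UMIs in immature neutrophils and were not compared. The size of this class depended on rounding in the clustering, and with another kernel of the linear algebra library it held 88 WT and 161 APP/PS1 cells, with Trem1 at 441 and 343 CPM.

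Trem1 and Tyrobp were graded against the granule genes. When neutrophils were divided by the share of their UMIs in Camp, Ngp and Ltf, Trem1 in WT was 1152 CPM at a share of 0, 1049 CPM up to 0.2%, 737 CPM up to 1%, 565 CPM up to 5% and 270 CPM above 5%. In APP/PS1 it was 1057, 1067, 578, 393 and 269 CPM in the same ranges. Tyrobp was 7782 CPM in the lowest and 2232 CPM in the highest range in WT, and 8572 and 2543 CPM in APP/PS1. Trem3 was 310 and 321 CPM at these ends in WT and 349 and 438 CPM in APP/PS1. Pglyrp1, which encodes a granule peptidoglycan-binding protein known as a ligand of TREM1, moved the other way, from 1334 to 2155 CPM and from 1340 to 2447 CPM. The ranges are not cell types, and the 3 upper ones held 19, 26 and 41 WT cells and 38, 55 and 75 APP/PS1 cells. Since these are shares of all UMIs, the granule genes themselves lower the level of every other gene in the highest range. Other abundant genes were also raised in the immature cluster. Summed neutrophil markers stood at 328585 and 327228 CPM there, against 178969 and 147807 CPM in mature neutrophils.

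**Figure D3:**
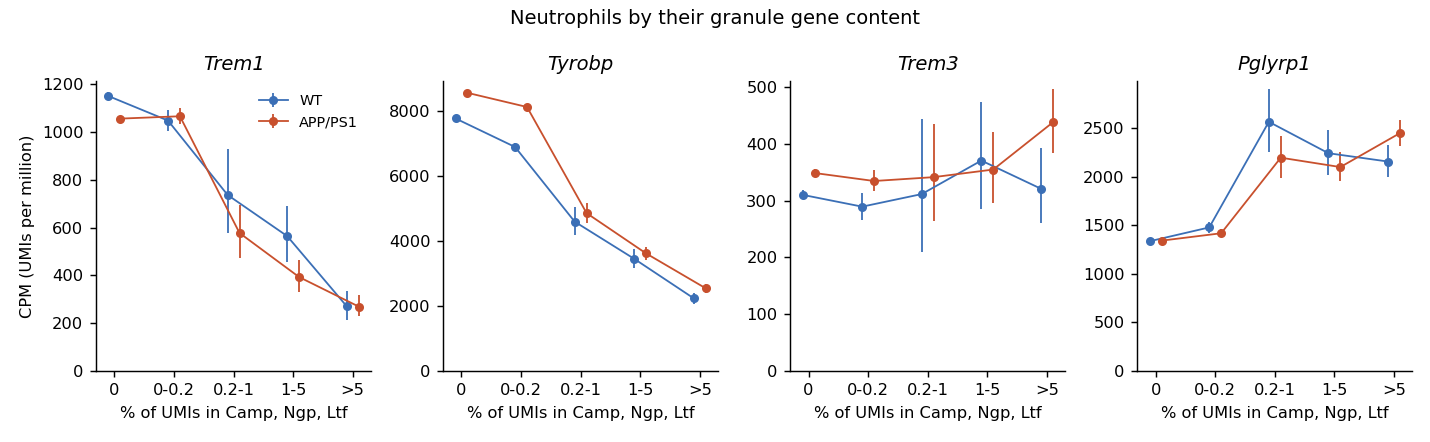
Level (CPM) of Trem1, Tyrobp, Trem3 and Pglyrp1 in neutrophils grouped by the percentage of their UMIs in Camp, Ngp and Ltf, with WT in blue, APP/PS1 in orange and exact 95% Poisson intervals. Trem1 falls from 1152 to 270 in WT and from 1057 to 269 in APP/PS1, while Trem3 stays between 289 and 370 in WT and between 334 and 438 in APP/PS1.

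Within one cell type, Trem3 could also be read against Trem1, its neighbour on the chromosome. Mature neutrophils held 26.9 Trem3 UMIs per 100 Trem1 UMIs (26.2 to 27.6) in WT and 32.7 (31.9 to 33.4) in APP/PS1. T cells, at 25.4 and 32.8, and NK cells, at 29.9 and 34.0, had nearly the ratio of the mature neutrophils of the same library. B cells were at 37.3 (27.5 to 50.1) in WT and 21.4 (13.6 to 32.7) in APP/PS1. These lay on opposite sides of the neutrophil ratios, but both intervals overlapped with those of mature neutrophils. The ratio was higher in immature neutrophils, at 56.1 and 86.3, and in nonclassical monocytes, at 89.2 (83.6 to 95.3) and 147 (135 to 161). Cell by cell, however, the detection of one said little about the other in mature neutrophils thinned to 1000 UMIs. A Trem3 UMI was seen in 26.4% of cells with and 25.7% of cells without a Trem1 UMI in WT, and in 29.9% and 28.7% in APP/PS1.

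Monocyte class was compared because mouse blood monocytes fall into classical cells, recruited to inflamed tissue, and nonclassical cells, which patrol vessels. Trem1, Trem3 and Treml4 were higher in nonclassical monocytes, Trem2 and Treml2 were higher in classical monocytes, and Tyrobp lay close in both. The log2 ratio of nonclassical to classical was 3.35 (3.23 to 3.46) in WT and 3.34 (3.21 to 3.47) in APP/PS1 for Treml4. It was 2.06 and 2.31 for Trem3 and 1.60 and 1.82 for Trem1. In the other direction it was -1.81 and -1.50 for Trem2 and -2.16 and -1.88 for Treml2. The ratio for Tyrobp was -0.13 and -0.20. Both libraries thus gave the same direction for all 6 genes, and the neutrophil markers differed little between the classes, with a summed level of 2157 and 2083 CPM in classical and 2686 and 2448 CPM in nonclassical monocytes. Classical monocytes here include cells with high MHC class II genes, of which 103 WT and 74 APP/PS1 cells formed a cluster of their own with the other kernel. The 6 genes had been kept out of the features used for clustering, yet they are correlated with the genes that defined the classes, so the direction is a description of the classes and not a test.

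Treml4 was also read cell by cell against Trem3 in monocytes thinned to 1000 UMIs. In classical monocytes Treml4 was found in 10.8% (4.78 to 20.2) of the 74 WT cells with a Trem3 UMI and in 4.34% (3.46 to 5.36) of those without it. In APP/PS1 it was found in 13.6% (5.17 to 27.4) of 44 cells and in 4.84% (3.76 to 6.11) of the rest, so the intervals overlapped in both libraries. In nonclassical monocytes the shares were 44.2% (38.6 to 49.9) and 36.0% (34.0 to 38.1) in WT, whose intervals did not overlap, and 42.4% (36.1 to 49.0) and 39.9% (37.3 to 42.6) in APP/PS1, whose intervals did.

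APP/PS1 was then compared with WT within each cell class. A gene was taken as past the fold where it had at least 50 UMIs in both libraries together and a log2 ratio beyond 0.5 in size (1.41-fold), the fold of the study's methods. In mature neutrophils none of the 6 genes was past the fold, while 6.55% of 9396 genes were higher and 4.7% were lower. Trem3, at 309 and 347 CPM, had a log2 ratio of APP/PS1 to WT of 0.17 (0.12 to 0.22). Tyrobp, at 7731 and 8549 CPM, had a ratio of 0.14 (0.14 to 0.15) and Treml2 one of 0.12 (0.04 to 0.21). Trem1 went the other way, at -0.11 (-0.14 to -0.09). The intervals of Treml4, at -0.11 (-0.29 to 0.07), and Trem2, at -0.08 (-0.81 to 0.66), held 0. The median ratio over the 6 genes was 0.02, beside 0.05 over all genes counted.

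Differences of this size in the abundant genes are larger than counting error, but the spread between pools of mice is not known. The summed level of the 10 neutrophil markers also differed between mature neutrophils of the libraries, at 178969 CPM (WT) and 147807 CPM (APP/PS1), and its part in these ratios was not tested. In immature neutrophils, where 4 members had enough UMIs, none was past the fold, while 8.26% of 3622 genes were higher and 7.45% were lower, so that 0 of 4 is near this background. Trem1, at 560 and 436 CPM, had a ratio of -0.36 (-0.53 to -0.19), Trem3 one of 0.26 (0.05 to 0.47), Treml2 one of 0.18 (-0.21 to 0.58) and Tyrobp one of -0.07 (-0.13 to -0.01). Trem1 was thus lower and Trem3 higher in the APP/PS1 library at both ages.

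In both monocyte classes Trem1 was the only member past the fold, and it was lower in APP/PS1. Classical monocytes held 57.0 CPM from 890 UMIs in WT and 33.1 CPM from 351 UMIs in APP/PS1, a log2 ratio of -0.79 (-0.97 to -0.61). In that class 3.22% of 9929 genes were higher and 3.89% were lower, so 1 of 6 lower is a small count against this background. Nonclassical monocytes held 174 and 116 CPM from 1930 and 813 UMIs, a ratio of -0.58 (-0.70 to -0.46), where 3.35% of 9356 genes were higher and 4.47% were lower. Trem1 in B cells had a ratio of like size, -0.58, and the summed neutrophil markers of B cells stood at 13205 CPM (WT) and 6675 CPM (APP/PS1). In the monocytes those markers were closer, at 2157 and 2083 CPM and at 2686 and 2448 CPM, and the part of neutrophil RNA in the Trem1 difference was not tested. Leaving out monocytes with over 0.5% of their UMIs in neutrophil markers gave ratios of -0.85 and -0.59. Without percentile limits on the cells, the ratio in nonclassical monocytes was -0.18 and no longer past the fold, and their neutrophil markers were then at 14864 and 16388 CPM.

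The remaining members differed less in monocytes. Treml4 in nonclassical monocytes, at 460 and 536 CPM, had a ratio of 0.22 (0.16 to 0.28), and Trem3, at 155 and 171 CPM, one of 0.15 (0.04 to 0.25). Treml4 in classical monocytes, at 45.3 and 52.9 CPM, had one of 0.22 (0.06 to 0.39), and one of 0.03 when members and pathway genes were among the clustering features. Trem2 in classical monocytes, at 61.3 and 48.7 CPM, had a ratio of -0.33 (-0.49 to -0.18), and in nonclassical monocytes it was at 17.4 and 17.2 CPM. Tyrobp had ratios of 0.051 (0.03 to 0.07) and -0.02. The median over the 6 genes was -0.10 in classical and 0.06 in nonclassical monocytes, beside -0.04 and -0.01 over all genes counted.

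**Figure D4:**
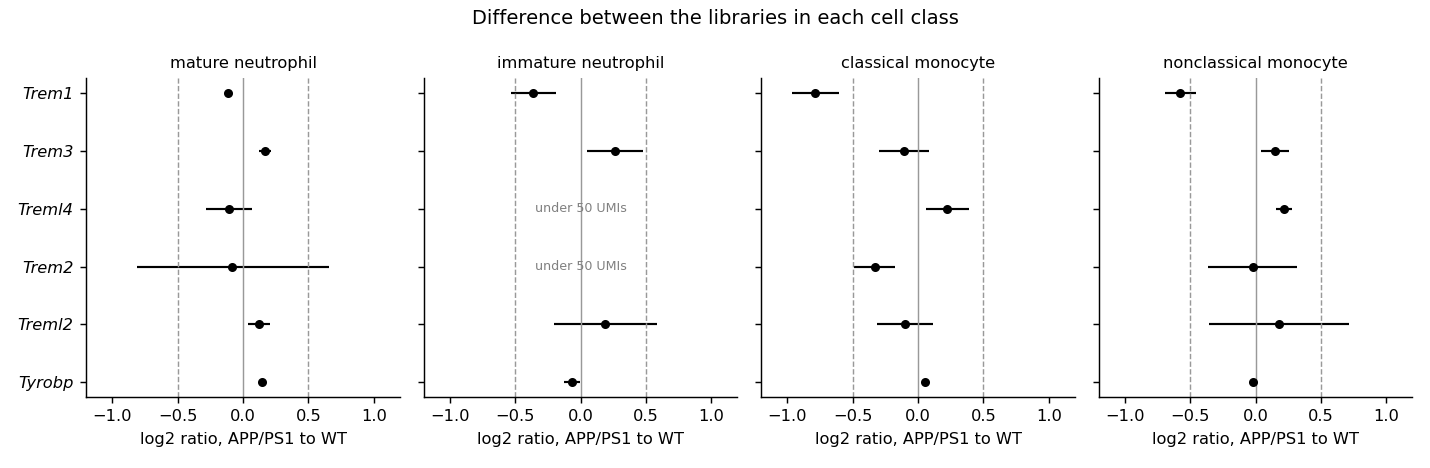
Log2 ratio of APP/PS1 to WT for the 6 genes in 4 cell classes, with exact 95% conditional intervals; the solid line marks 0 and the dashed lines mark 0.5 in either direction. Trem1 in classical monocytes, at -0.79, and in nonclassical monocytes, at -0.58, are the points beyond the dashed lines.

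Neutrophils were also divided into 6 clusters, the smallest number asked of the clustering. Their leading genes were those of the stefin and Retnlg group (cluster 0), platelet genes (1), interferon-induced genes (2), Clec4n and Dusp2 (3), granule genes (4, the immature cells) and mitochondrial genes (5). Trem1 differed little between the mature clusters in APP/PS1, with 1019 to 1126 CPM. In WT it ranged from 1082 CPM (1052 to 1114) in cluster 1 to 1257 CPM (1208 to 1306) in cluster 3, whose level in APP/PS1 was 1069 CPM. Treml2 had its highest value in cluster 1, at 117 CPM (107 to 127) in WT and 126 CPM (118 to 135) in APP/PS1. In the interferon cluster 2 it stood at 101 CPM (92.2 to 110) and 111 CPM (103 to 120), so the intervals overlapped in both libraries. In cluster 0 it stood at 78.2 and 85.1 CPM. The log2 ratio to cluster 0 was 0.58 (0.41 to 0.74) and 0.57 (0.43 to 0.71) for cluster 1 and 0.37 (0.20 to 0.53) and 0.39 (0.24 to 0.53) for cluster 2. Summed platelet markers stood at 3335 and 4043 CPM in cluster 1 but at 589 and 751 CPM in cluster 2 and 602 and 720 CPM in cluster 0. Treml2 was higher than in cluster 0 both in cluster 1, with raised platelet RNA, and in cluster 2, without it. The part of platelet RNA in these ratios was not tested.

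Tyrobp was highest in cluster 3, which held 987 WT and 2011 APP/PS1 cells, and Trem3 was higher there than in cluster 0 in both libraries. Tyrobp had a log2 ratio to cluster 0 of 0.32 in WT and 0.19 in APP/PS1. Trem3 stood at 351 and 408 CPM in cluster 3 and at 295 and 341 CPM in cluster 0, a ratio of 0.25 (0.13 to 0.37) in WT and 0.26 (0.18 to 0.34) in APP/PS1. Treml4 was at 28.6 and 37.2 CPM in cluster 3 and at 20.2 and 15.3 CPM in cluster 0, a ratio of 0.50 (0.05 to 0.93) in WT and 1.28 (0.97 to 1.60) in APP/PS1. Summed neutrophil markers were at 84788 and 74386 CPM in cluster 3 and at 213940 and 189116 CPM in cluster 0, and their part in these ratios was not tested.

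The borders of these clusters moved with rounding. The other kernel gave 7 clusters, of which 6 were led by the same kinds of genes. The 16 platelets of each library were then called mature neutrophils, and a separate small cluster of 16 WT and 17 APP/PS1 cells held Treml2 at 509 and 477 CPM. With that kernel, the interferon cluster held 734 and 1193 cells in place of 1427 and 1591, and the Clec4n cluster 2518 and 3457 in place of 987 and 2011. Treml2 was then at 119 and 123 CPM in the interferon cluster and at 112 and 119 CPM in the large cluster led by platelet genes, against 79.4 and 90.1 CPM in the stefin cluster. The order of the interferon and platelet-gene clusters was thus the reverse of that with the first kernel, and their intervals overlapped with either kernel. Tyrobp was again highest in the Clec4n cluster, at 8159 and 8983 CPM. Trem3 there, at 312 CPM (299 to 325) in WT, overlapped with the stefin cluster, at 296 CPM (283 to 308), while in APP/PS1 it was at 376 CPM (364 to 388) against 327 CPM (313 to 340).

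**Figure D5:**
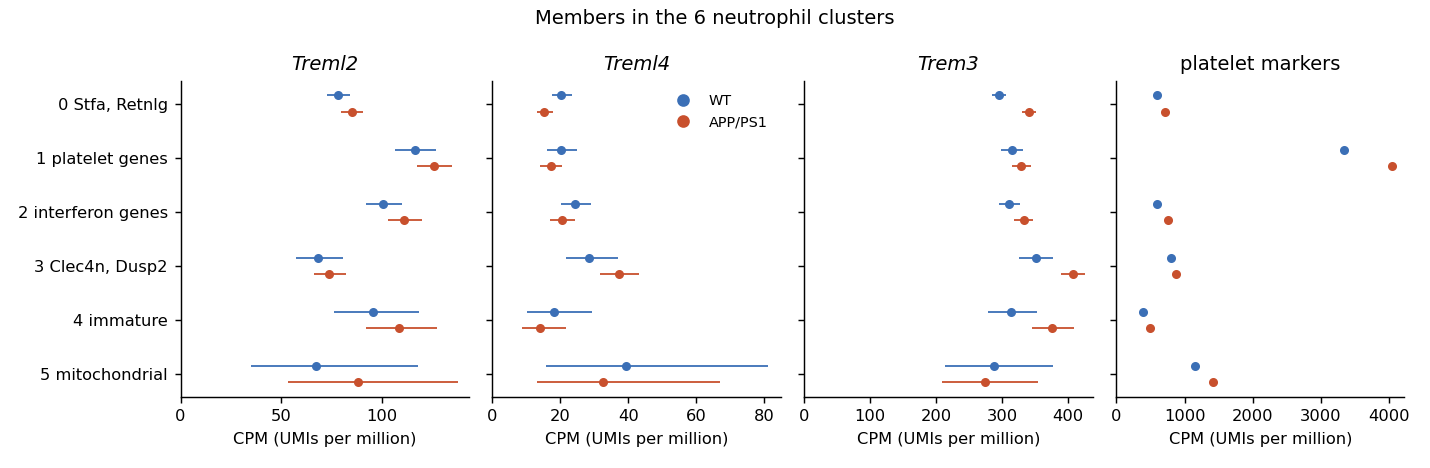
Level (CPM) of Treml2, Treml4 and Trem3 and of the summed platelet markers in 6 neutrophil clusters, with WT in blue, APP/PS1 in orange and exact 95% Poisson intervals for the single genes. Treml2 has its highest value in cluster 1, where platelet markers reach 3335 and 4043, with intervals that overlap those of cluster 2. It lies above cluster 0 in cluster 2 too, where platelet markers stand at 589 and 751.

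The genes around DAP12 signalling were read from a list of 60 names, of which 57 were in the tables, 51 of them other than the members. In mature neutrophils 42 of these 51 had enough UMIs, 2 were higher and 2 were lower past the fold in APP/PS1, and their median ratio was 0.02. Over all 9396 genes counted there, 6.55% were higher and 4.7% were lower, so these counts are near that background. By role, the past-fold genes were 1 of 8 ligands and sheddases, 1 of 7 other receptors that pair with DAP12, the 1 other TREM gene and 1 of 10 scaffolds and effectors, and there was none among 2 adaptors, 8 kinases and 6 inhibitors.

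Treml1, the TREM gene of platelets, was higher in APP/PS1 mature neutrophils, at 21.6 and 33.1 CPM with a ratio of 0.61 (0.45 to 0.78). Its level over both libraries was 85.8 CPM in the neutrophil cluster with platelet genes and 10.7 CPM in cluster 0, and the former cluster held 1404 WT and 1912 APP/PS1 cells. The part of platelet RNA in the Treml1 ratio was not tested. Sirpb1a, an activating receptor gene of the SIRP family, stood at 19.5 and 29.96 CPM (0.62, 0.45 to 0.79). Lower were Lat2, a membrane scaffold gene, at 6.46 and 3.57 CPM (-0.86, -1.25 to -0.47), and Adam17, the gene of a protease that sheds TREM2, at 49.5 and 30.6 CPM (-0.69, -0.83 to -0.56).

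Within the fold, Clu was at 0.41 and Syk at -0.29. Syk, the kinase that binds DAP12, was at 412 and 337 CPM. The adaptor genes next to Tyrobp in function were close in both libraries, with Fcer1g at 2574 and 2794 CPM and Hcst at 381 and 397 CPM.

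In classical monocytes 43 of the list were counted, and 1 was past the fold, beside 3.22% higher and 3.89% lower over all genes counted. Apoe, which encodes apolipoprotein E, a ligand of TREM2, stood at 994 CPM (15500 UMIs) in WT and 1881 CPM (19957 UMIs) in APP/PS1, a log2 ratio of 0.92 (0.89 to 0.95). Trem2 itself was lower in the same cells, at 61.3 and 48.7 CPM. Apoe had the opposite sign in 2 other classes, with ratios of -0.18 (-0.21 to -0.16) in nonclassical monocytes, at 2678 and 2357 CPM, and -0.27 (-0.33 to -0.21) in mature neutrophils, at 203 and 168 CPM. The others at the ends of the list were Clu at 0.40, Treml1 at 0.33, Psen2 at -0.42, Inpp5d at -0.35 and Ubash3b at -0.29.

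Of 42 genes counted in nonclassical monocytes, 2 were past the fold, both lower in APP/PS1. Over all genes counted there, 3.35% were higher and 4.47% were lower, so 2 of 42 is near this background. Inpp5d encodes SHIP1, a lipid phosphatase that restrains DAP12 signalling, and stood at 248 CPM (WT) and 157 CPM (APP/PS1), a ratio of -0.66 (-0.77 to -0.56). Klrk1, the gene of the activating receptor NKG2D, rested on 40 and 17 UMIs, and its ratio of -0.56 (-1.47 to 0.29) had an interval that held 0. Malt1, of the complex that links Syk to NF-kappa-B, was just inside the fold at 0.495 (0.40 to 0.59). Treml1 at 0.37 and Dok1 at 0.31 were the next highest, and Hcst at -0.44 and Lat2 at -0.37 the next lowest. The median ratio of the list was -0.04 in classical and -0.06 in nonclassical monocytes.

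The chromosomal neighbours were read last. Of genes within 500 kb of the receptor genes, 7 were counted in mature neutrophils, with Treml1 the one past the fold and a range of -0.45 to 0.61. In classical monocytes none of 7 was past it, with a range of -0.38 to 0.35. Nonclassical monocytes also had none of 7 past it, with a range of -0.27 to 0.44. Around Tyrobp, 16 neighbours in mature neutrophils and 20 in classical monocytes held none past the fold, and in nonclassical monocytes Zfp260, at 9.62 and 15.6 CPM, was the one past it of 21, at 0.70 (0.30 to 1.10). Over all genes counted, 6.55% were higher and 4.7% were lower in mature neutrophils. The shares were 3.22% and 3.89% in classical and 3.35% and 4.47% in nonclassical monocytes. With so few neighbours, their counts cannot be set apart from this background. The Trem1 difference in monocytes was not shared by Trem3, 852 bases away, whose ratio was -0.11 in classical and 0.15 in nonclassical monocytes.

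Genes most like each member over cell types were found among 10525 other genes from Pearson's r of log2(CPM + 1). It was taken over 16 points, 8 cell types in each of the 2 libraries. The types were mature and immature neutrophils, classical and nonclassical monocytes, and NK, T, B and erythroid cells, the last with much neutrophil marker RNA. Points of one library share its depth and free RNA, so these are descriptions. For Trem1 they were C5ar1, the receptor gene for complement C5a (r = 0.99), Plk3 (0.98) and Aqp9 (0.97). For Trem3 they were Pilra (0.98), Lpcat2 (0.97) and Fpr2, a formyl peptide receptor gene (0.97), and Trem1 and Trem3 had an r of 0.85 with each other. Treml4 went with Ly6i (0.96), Il31ra (0.95) and Tcf7l2, a transcription factor gene (0.95). Trem2 went with Slamf8 (0.96), Ppfia4 (0.96) and Fkbp1b (0.96), Treml2 with Cd200r1 (0.97), Gm14548 (0.96) and S100a6 (0.93), and Tyrobp with Sdcbp (0.94), Apobr (0.93) and Xdh (0.92).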

How the data were processed

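The authors deposited raw UMI counts, with 1 matrix per library, for the barcodes taken as cells by Cell Ranger 5.0.0 with the 10x Genomics mm10 reference. Both libraries were read with R 4.3.3 and Seurat 5.3.0, and summed with Python 3.11.15, numpy 2.4.6, scipy 1.17.1 and pandas 2.3.3. In each library, cells below the 5 or above the 95 percentile of UMIs or genes, or with over 10% mitochondrial UMIs, and genes in fewer than 3 cells were left out. Cells were clustered on 2000 variable features (1986 without members and pathway genes) with 15 principal components (resolution 0.2), and clusters took their names from markers. Neutrophils and monocytes were then clustered again with anchors between the libraries. Monocyte clusters with raised neutrophil markers (1022 and 778 cells) received no name and entered no comparison. Clustering therefore need not match the study's cell for cell. It was run on 1 thread with 1 fixed kernel (Haswell) of the OpenBLAS library, since other rounding moved cells between clusters. With another kernel (Nehalem) 98.5% of 29772 cells kept their type.

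Of the barcodes, 83 stood in both libraries. Doublets were scored by Scrublet in scanpy 1.11.5. Its automatic threshold called 9.04% of WT and 0% of APP/PS1 cells and so did not work in the latter, and the cells with the top 8% of scores (1301 and 1382) were removed only in an alternative. For shares of cells with a UMI, cells were also thinned to 1000 UMIs.

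UMIs were summed per class and library. A count of 0 allows up to 3 counts. Interval code was checked on simulated counts. Library size factors by TMM (edgeR 4.0.16) were an alternative only, since 1 library per group allows no test. Named were all 6 members, pathway genes past the fold or among the 3 highest and 3 lowest ratios, neighbours within 500 kb past the fold, and the 3 genes most like each member. Adaptors, Syk, Pglyrp1 and neutrophil genes used as references were added after values were seen. Members, lists and markers were chosen with earlier results of these data known.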

Additional observations from a re-analysis of the deposited data

Results flagged for a closer look

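The log2 ratio of APP/PS1 to WT had opposite signs in different cell types for 4 members, with intervals that did not reach 0. The differences between cell types were not tested, since each rests on 1 library per genotype. Trem1 was higher in erythroid cells of APP/PS1, at 0.46, and lower in mature neutrophils (-0.11), immature neutrophils (-0.36), classical monocytes (-0.79), nonclassical monocytes (-0.58) and B cells (-0.58). Trem3 was higher in mature neutrophils (0.17), immature neutrophils (0.26), nonclassical monocytes (0.15) and erythroid cells (0.69) and lower in B cells (-1.38). Treml2 was higher in mature neutrophils (0.12) and erythroid cells (0.96) and lower in B cells (-0.63). Tyrobp was higher in mature neutrophils (0.14), classical monocytes (0.051), NK cells (0.092) and erythroid cells (0.56) and lower in immature neutrophils (-0.068), T cells (-0.24) and B cells (-0.34).

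In B and erythroid cells the summed neutrophil markers moved in the same direction as these members, from 13205 to 6675 CPM in B cells and from 34546 to 42216 CPM in erythroid cells. In T cells they went from 13238 to 14167 CPM, against the direction of Tyrobp. Their part in the ratios was not tested.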

How the results depend on the processing

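No paired analysis was possible because each genotype had 1 library. No ratio past the fold changed direction under an alternative. Smaller ratios did: Trem2 in mature neutrophils ranged from -0.28 to 0.36 and Treml4 there from -0.16 to 0.01. In nonclassical monocytes Trem2 ranged from -0.11 to 0.05 and Tyrobp from -0.06 to 0.05. Levels depended on the totals. With TMM factors 23 levels moved outside their counting interval and 1 did not, and with totals without abundant families 22 moved and 2 did not. With thinned cells 12 moved and 12 did not. Trem1 in classical monocytes stayed lower past the fold under all 12 alternatives, with log2 ratios of -0.94 to -0.75. Trem1 in nonclassical monocytes did so under 11 of 12. Without percentile limits the count of members lower there was 0 in place of 1, at -0.18, and neutrophil markers were higher in those cells. In immature neutrophils 1 member was lower (Trem1) and 1 higher (Trem3) when cells were thinned to 1000 UMIs. Tyrobp in immature neutrophils ranged from -0.14 to 0.14. Lower Trem1 and Tyrobp in immature than in mature neutrophils kept sign and fold in all 11 alternatives, as did the 5 ratios past the fold between monocyte classes. Trem3 between neutrophil ages ranged from -0.41 to 0.30 in WT and from -0.01 to 0.43 in APP/PS1. Treml2 ranged from -0.14 to 0.35 and from 0.08 to 0.46. With no minimum of UMIs, pathway genes past the fold were 7 higher in mature neutrophils, 6 higher and 1 lower in classical and 2 higher and 6 lower in nonclassical monocytes. By construction, this adds genes with few UMIs. With TMM factors 1 was higher in nonclassical monocytes. The causes of the other changes were not tested. The other linear algebra kernel changed none of the counts of members past the fold, though immature neutrophils then held 88 and 161 cells. Pathway genes were not counted again with that kernel or with any other clustering. Alternatives on platelet RNA, neutrophil RNA in monocytes, shared barcodes, maturity by granule genes and the linear algebra kernel were chosen after seeing the data. Depth limits Trem2 in neutrophils and all members in basophils and platelets.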

Other observations

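The 2 monocyte clusters with raised neutrophil markers, which entered no comparison, together held the TREM genes of both lineages. Over both libraries together these cells (1022 WT and 778 APP/PS1) held 431 CPM of Trem1, 174 CPM of Trem3, 155 CPM of Treml4, 25.7 CPM of Trem2, 47.1 CPM of Treml2 and 4698 CPM of Tyrobp, each between the levels of mature neutrophils and of a monocyte class. Trem3 was at 37.0 UMIs per 100 Trem1 UMIs in WT and 46.3 in APP/PS1 there. The 2 clusters were unlike. The one of 1092 cells, whose top genes included Iglc1, Csta1 and Mal, held 268 CPM of Treml4 and 8.61 CPM of Trem2. The one of 708 cells, whose top genes included S100a9 and S100a8, held 46.8 CPM of Treml4 and 42.0 CPM of Trem2. Whether these are doublets or single cells was not tested.

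Hcst, the gene beside Tyrobp, had another order of cell types, with 619 CPM in T cells and 577 CPM in NK cells above 390 CPM in mature neutrophils over both libraries together.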
